A study of Mus musculus with 36 samples.

Results

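C/EBPαR35A cells were compared with C/EBPαWT cells at 1 hr post induction (hpi), the earliest timepoint after induction. The comparison rests on 4 libraries of the 36 in the series, 2 of C/EBPαR35A cells and 2 of C/EBPαWT cells, chosen by the construct and the timepoint in their titles. All cells were B cells from the bone marrow of C57BL/6J mice, infected with a retrovirus that encodes C/EBPα fused to the estrogen receptor (ER) together with human CD4, enriched for human CD4 and plated on inactivated fibroblast feeders. The labels name IL-7 as the added cytokine, and the methods of the study list IL-3, FLT-3, M-CSF and SCF beside it. The 2 arms therefore share the kind of vector, the fusion partner, the feeders, the cytokines and the inducer. By design they differ in the residue at position 35 of C/EBPα, which is arginine in the wild type and alanine in the R35A mutant. Each construct was introduced by a retrovirus of its own. Differences between the infections or cultures of the arms therefore cannot be told apart from that of the residue. No age is given in the labels, and an uninduced sample (0 hpi) exists for each construct. The study named the libraries of a group biological replicates, but the labels do not say that they came from separate cultures, so p-values here measure only the spread between these libraries.

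C/EBPα is a leucine zipper transcription factor that directs the formation of granulocytes and macrophages in the bone marrow. When it is forced into B lineage cells it silences their program and installs that of macrophages, a process called B cell to macrophage transdifferentiation (BMT). Estradiol (E2) releases the ER fusion into the nucleus, so that the transcripts of the first hour are those closest to the arrival of the factor. PU.1, encoded by Spi1, is the ETS family partner of C/EBPα on many macrophage genes and is also used by B cells. Arginine residues can be methylated, and Carm1 is an enzyme that does so. The question asked of the comparison is how replacing arginine 35 alters the genes that respond first.

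At 1 hpi many genes of macrophages were higher, and many of pre-B cells and of cell division were lower, in C/EBPαR35A cells. Of 16988 genes tested, 1445 were higher (8.51%) and 1840 lower (10.8%) in C/EBPαR35A cells than in C/EBPαWT cells, 19.3% in all. A gene was called when its fold change reached 1.5 in either direction with an adjusted p of at most 0.05 (edgeR quasi-likelihood test, Benjamini-Hochberg). The called genes of the higher set had a median log2 fold change of 0.91 and those of the lower set of -1.12, against -0.01 over all genes tested. Changes of 4-fold or more were found for 134 higher and 140 lower genes, and of 16-fold or more for 7 and 9. In 1444 of the 1445 higher genes both R35A libraries lay above both wild-type libraries, and in 1837 of the 1840 lower genes below them. Over all 16988 genes tested, both R35A libraries lay above both wild-type libraries for 6097, and the reverse order was not counted. The called genes were chosen by a test on these libraries. Of the called genes, 644 higher and 945 lower had a mean of at least 10 CPM (counts scaled to the size of the library) over the 4 libraries, and 213 and 267 lay below 1 CPM. With the size factors of DESeq2 in place of TMM factors the split was 1734 higher to 1642 lower, and the median of all genes moved by 0.06.

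**Figure D1:**
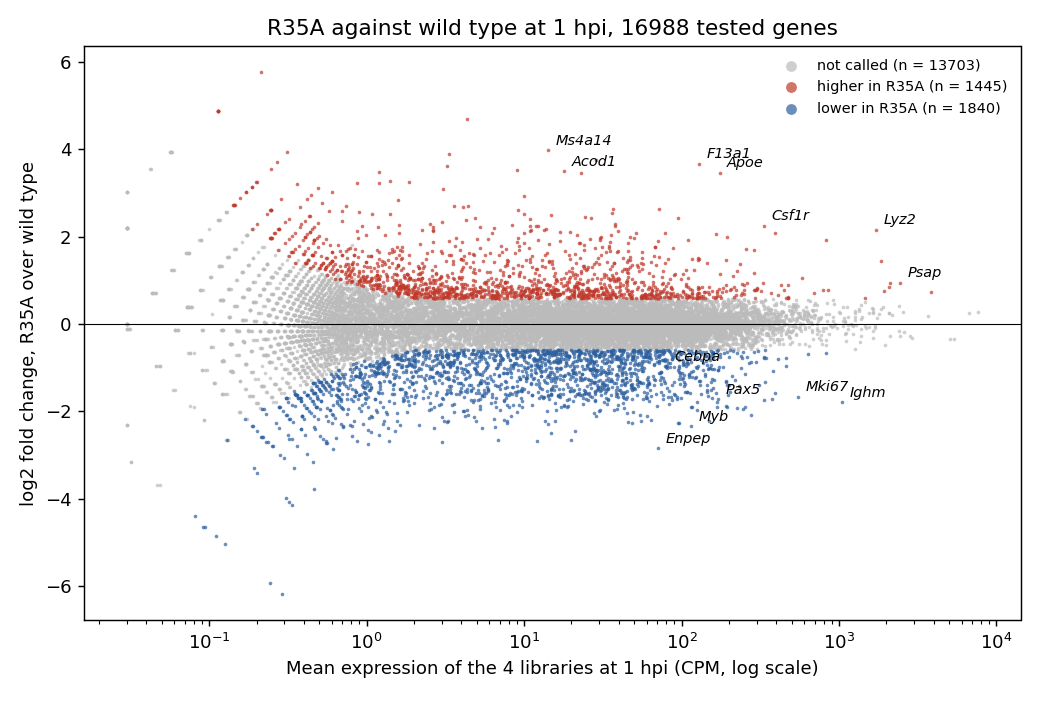
Log2 fold change of R35A over wild type at 1 hpi (y axis) against mean expression of the 4 libraries in CPM (x axis, log scale). Each point is 1 of 16988 genes, and red and blue mark the 1445 and 1840 genes called. Ms4a14, F13a1, Apoe and Lyz2 lie far above 0, and Enpep and Myb far below it.

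Total counts on genes were 14160103 and 16235204 for the wild-type libraries and 17257220 and 16784026 for the R35A libraries, within the range of 13044456 to 20580185 over the 24 libraries of both constructs. The common biological coefficient of variation was 3.17%, so small folds passed the test of p alone, which called 8642 genes. Markers of the labelled cell type, the B lineage, were present in all 4 libraries, and none of the 10 was at 0. Their summed level was 1992 and 1985 CPM in wild-type cells and 613 and 608 CPM in R35A cells. Of 10 macrophage markers 9 were higher. The 20 markers of feeder fibroblasts summed to 11206 and 11174 CPM in wild-type and to 11240 and 11259 CPM in R35A cells, and 1 of the 20 was called, Dcn, which was higher in R35A cells. The 9 neutrophil markers summed to 2.11 to 3.78 CPM, and 9 T cell markers, of which 2 were at 0 in all 4 libraries, to 14.5 and 16 CPM in wild-type and 6.09 and 6.31 CPM in R35A cells. The 7 NK cell markers, 1 of them at 0, summed to at most 1.69 CPM and the 7 erythroid markers in the table to at most 1.19 CPM. The 7 mast cell and basophil markers, 3 of them at 0, summed to 17.9 and 15.9 CPM against 29.6 and 32.5 CPM. The 6 platelet markers summed to 54.6 and 55.5 CPM against 199 and 200 CPM, in which Pf4, also a macrophage gene, is counted. The part of these other cells in the results was not tested. In bulk RNA, fewer cells of a kind and less RNA per cell cannot be told apart.

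The genes whose products make up the introduced fusion were examined first. Cebpa, whose counts may hold reads of the construct beside those of the cell's own gene, was at 44.3 and 39.2 CPM in wild-type and 40.9 and 35.7 CPM in R35A libraries at 0 hpi. At 1 hpi Cebpa stood at 109 and 105 CPM in wild-type cells and at 53.5 and 56.1 CPM in R35A cells, which on the log2 scale is -0.97 ± 0.06 (SE, adjusted p = 2.97e-20, edgeR). Cebpa was thus lower in the mutant, in which 9 of 10 macrophage markers were higher. Esr1, which encodes the receptor and was looked at after its values were seen, was at 148 and 153 CPM against 46.5 and 46.4 CPM at 1 hpi. Uninduced cells had 61.6 and 62.7 CPM of Esr1 with the wild type and 56.6 and 54.8 CPM with R35A. How many reads of either gene came from the construct was not tested. Spi1 was at 78.8 and 75.0 CPM in wild-type and at 95.4 and 96.4 CPM in R35A cells, and Carm1 at 56.0 and 57.4 CPM against 69.0 and 66.4 CPM. Neither reached the fold threshold (log2 differences of 0.32 and 0.26), and 0 of 8 tested arginine methyltransferase genes was called.

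The first question was whether the RNA of the arms already differed before induction. The study reported more accessible chromatin at B cell regulatory elements in uninduced R35A cells, and proposes that the construct was leaky. It saw no altered expression of the associated B cell genes in those cells. At 0 hpi, 0 genes (0%) were called between the constructs with edgeR, 261 genes had an unadjusted p of at most 0.05 with the fold, and DESeq2's Wald test called 1. The genes higher at 1 hpi had a median log2 difference of 0.05 at 0 hpi, and the lower genes of -0.07. B lineage markers summed to 4203.4 and 4213.2 CPM in uninduced wild-type and 3892.5 and 3917.3 CPM in uninduced R35A cells. The sums were 5571.2 and 5643.9 against 5279.6 and 5282.0 CPM for DNA replication, and 5240.5 and 5277.9 against 5025.5 and 4982.3 CPM for mitosis. Fibroblast markers went the other way, with 6290.7 and 6398.1 against 6612.5 and 6684.0 CPM. These sums were not tested. From 0 to 1 hpi 3388 genes (19.9%) changed in wild-type cells, of which 1814 rose (10.7%) and 1574 fell (9.27%). In R35A cells 6329 genes (37.3%) changed over the same hour, 3110 upward (18.3%) and 3219 downward (18.9%). The change itself differed between the constructs for 2384 genes (14.0%), by a test of the interaction, with 899 more positive (5.29%) and 1485 more negative (8.74%) in R35A cells.

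The direct comparison and the changes from 0 hpi were then set side by side, which share the libraries of 1 hpi. Of the 1445 genes higher at 1 hpi, 530 rose in both constructs and 622 rose in R35A cells without being called in wild-type cells. A further 242 were called in neither, 40 fell in wild-type cells alone, 6 fell in both, and 5 fell in wild-type and rose in R35A cells. Of the 1840 lower genes, 701 fell in both constructs and 869 fell in R35A cells without a call in wild-type cells. The remainder were 145 called in neither, 84 that rose in wild-type cells alone, 27 that rose in both and 14 that rose in wild-type and fell in R35A cells. An interaction in the same direction was called for 788 of the higher genes (54.53%) and 1416 of the lower genes (76.96%).

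**Figure D2:**
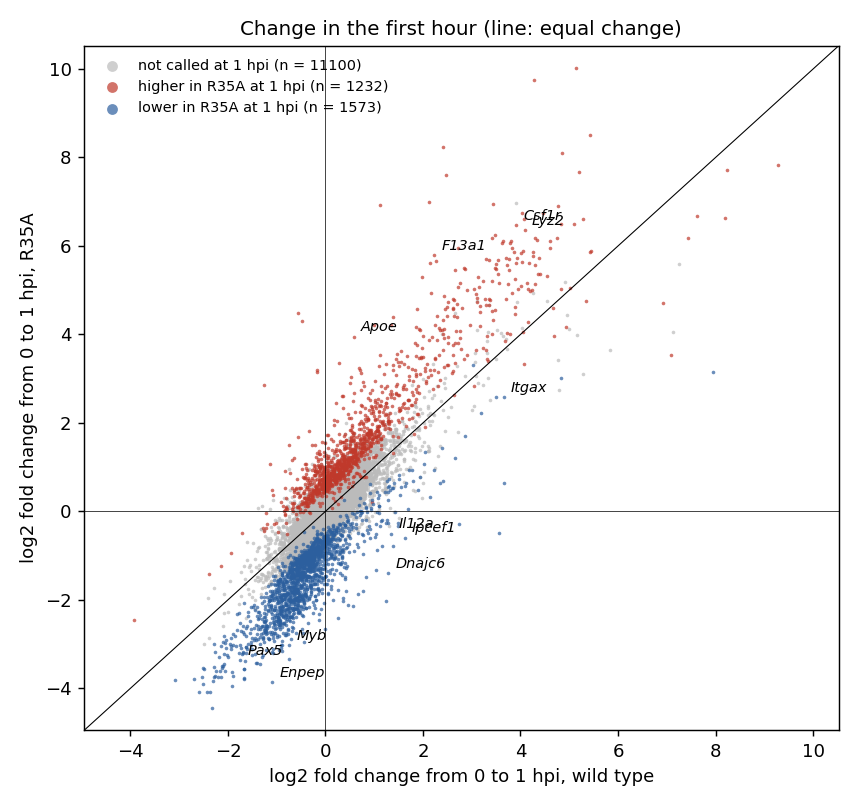
Log2 fold change from 0 to 1 hpi in wild-type cells (x axis) and in R35A cells (y axis), for the 13905 genes with a mean of at least 1 CPM at 1 hpi, with red and blue for genes higher or lower in R35A at 1 hpi. Red points lie mostly above the line of equal change and blue points mostly below it, and Ipcef1 and Dnajc6 rose in wild-type cells and fell in R35A cells.

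Among genes with at least 10 CPM, the largest increase in R35A over wild type was that of Ms4a14, a member of the family of tetraspanning membrane proteins. Ms4a14 was at 1.43 and 1.91 CPM in wild-type and at 26.2 and 27.3 CPM in R35A libraries, a log2 fold change of 3.98 ± 0.15 (SE, adjusted p = 6.2e-28). Its neighbours on chromosome 19 behaved likewise, Ms4a4a with 4.09 and 3.82 CPM against 53 and 53.6 CPM, and Ms4a7 with 3.82 and 3.82 CPM against 43.0 and 41.6 CPM. F13a1, which encodes the A chain of coagulation factor XIII and is made by monocytes and macrophages, was at 17.9 and 19.5 CPM against 238 and 240 CPM. Apoe, the apolipoprotein that macrophages secrete for lipid transport, had 28.5 and 29.6 CPM in wild-type and 321 and 323 CPM in R35A cells. Libraries that do not overlap between the constructs were a condition for choosing these genes. Apoe was one of the genes that rose in R35A cells without a call in wild-type cells, where it had been at 19.5 CPM on average at 0 hpi. Acod1, the enzyme that makes the antimicrobial metabolite itaconate, was at 2.66 and 3.16 CPM against 34.3 and 32.0 CPM.

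The remaining 6 of the 12 largest increases had log2 fold changes of 2.92 or less. Aoah, which removes acyl chains from bacterial endotoxin, lay at the upper end and Cd28, a costimulatory receptor best known from T cells, at the lower end, with 3.96 and 4.95 CPM against 24.2 and 26.6 CPM. Hp, the hemoglobin scavenger haptoglobin, was at 10.2 and 10.0 CPM against 61.5 and 64.5 CPM. Stab1, a scavenger receptor of tissue macrophages, was at 20.3 and 19.7 CPM against 124 and 124 CPM. C1qb, a subunit of complement C1q, was at 10.8 and 10.6 CPM against 62.3 and 61.8 CPM. C5ar1, the receptor of the complement fragment C5a, completed the set. Of these 12 genes, the increase in the first hour differed between constructs for all but Aoah.

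The largest decreases included genes of early B cells. Enpep, the surface aminopeptidase known on pre-B cells as BP-1, was at 123 and 128 CPM in wild-type and at 17.9 and 17.2 CPM in R35A libraries, a log2 fold change of -2.84 ± 0.06 (SE, adjusted p = 2.7e-40). Myb, a transcription factor of hematopoietic progenitors, was at 190 and 195 CPM against 39.9 and 35.8 CPM. Mzb1, a chaperone of immunoglobulin assembly, was at 76.3 and 74.1 CPM against 16.6 and 15.3 CPM. Separate libraries of the constructs were a condition for choosing these genes too. Gldc, the glycine decarboxylase of mitochondria, fell during the hour in R35A cells without a call in wild-type cells (log2 fold change of -2.26 at 1 hpi). Myl10, a myosin light chain, was at 161 and 154 CPM against 32.3 and 33.5 CPM. The other genes of this set were P2rx3, Dnajc6, Fndc9, Crhbp, Ipcef1, Tcrg-C2 and Clec2i, with log2 fold changes of -2.69 to -2.22.

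**Figure D3:**
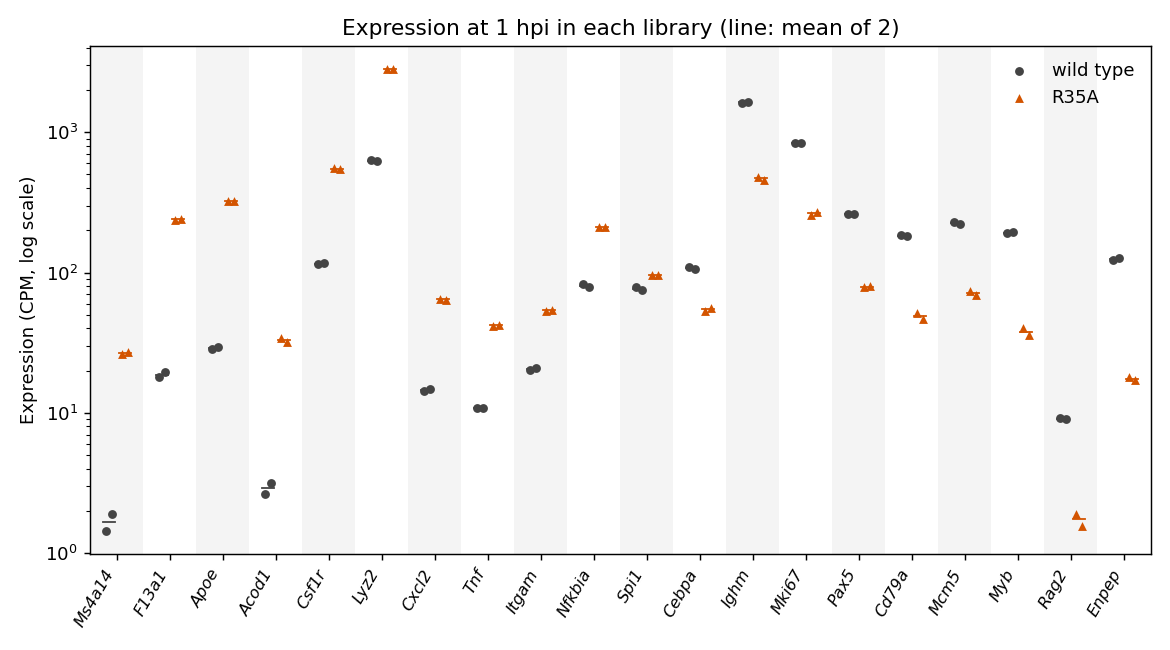
Expression at 1 hpi in each of the 4 libraries (y axis, CPM on a log scale) for 20 genes, with circles for wild type, triangles for R35A and a line for the mean of 2. The 2 libraries of a construct nearly coincide. The groups do not overlap for any gene shown, which was a condition for choosing some of them. Cebpa is lower in R35A while Spi1 differs little.

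The promoters of the 3 genes with the largest increase and of the first 3 with the largest decrease that have an entry are given here, since these genes moved together in opposite directions. Each is the 250 bases before the RefSeq start of transcription in GRCm38.p6, which is the build of the counts (mm10), written 5′ to 3′ along the gene. P2rx3 is named only. Capitals mark matches on either strand to TTGCNNAA, a C/EBP motif, to GAGGAA, the core of a PU.1 site, or to CCCNNGGG, an EBF1 motif.
The Ms4a14 window is chr19:11314455-11314704 on the minus strand.
Ms4a14 promoter: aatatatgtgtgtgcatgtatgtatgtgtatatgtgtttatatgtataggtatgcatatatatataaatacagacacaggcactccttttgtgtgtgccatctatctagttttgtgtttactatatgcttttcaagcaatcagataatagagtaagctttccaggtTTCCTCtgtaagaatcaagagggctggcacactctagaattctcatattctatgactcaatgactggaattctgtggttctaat
The Ms4a4a window is chr19:11375238-11375487 on the plus strand.
Ms4a4a promoter: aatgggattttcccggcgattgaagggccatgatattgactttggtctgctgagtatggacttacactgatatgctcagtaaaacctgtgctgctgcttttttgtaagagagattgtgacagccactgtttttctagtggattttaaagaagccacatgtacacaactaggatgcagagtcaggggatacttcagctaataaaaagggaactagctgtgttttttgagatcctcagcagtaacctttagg
The F13a1 window, the first of 2 listed, is chr13:37050245-37050494 on the minus strand.
F13a1 promoter: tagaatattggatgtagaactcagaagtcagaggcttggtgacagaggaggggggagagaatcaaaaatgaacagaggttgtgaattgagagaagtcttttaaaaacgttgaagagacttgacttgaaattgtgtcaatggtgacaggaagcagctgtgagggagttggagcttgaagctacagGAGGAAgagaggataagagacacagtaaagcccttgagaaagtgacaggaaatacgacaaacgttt
The Enpep window is chr3:129332750-129332999 on the minus strand.
Enpep promoter: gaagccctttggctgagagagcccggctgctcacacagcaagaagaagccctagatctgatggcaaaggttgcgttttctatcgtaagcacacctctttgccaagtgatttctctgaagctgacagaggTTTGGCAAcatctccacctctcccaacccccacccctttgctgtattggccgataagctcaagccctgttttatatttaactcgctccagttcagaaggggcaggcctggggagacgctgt
The Dnajc6 window, the first of 2 listed, is chr4:101507726-101507975 on the plus strand.
Dnajc6 promoter: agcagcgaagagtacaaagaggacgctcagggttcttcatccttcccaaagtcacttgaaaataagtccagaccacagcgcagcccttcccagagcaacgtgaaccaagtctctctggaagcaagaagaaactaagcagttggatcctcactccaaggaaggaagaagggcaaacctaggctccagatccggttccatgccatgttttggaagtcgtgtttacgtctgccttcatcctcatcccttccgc
The Fndc9 window is chr11:46235307-46235556 on the plus strand.
Fndc9 promoter: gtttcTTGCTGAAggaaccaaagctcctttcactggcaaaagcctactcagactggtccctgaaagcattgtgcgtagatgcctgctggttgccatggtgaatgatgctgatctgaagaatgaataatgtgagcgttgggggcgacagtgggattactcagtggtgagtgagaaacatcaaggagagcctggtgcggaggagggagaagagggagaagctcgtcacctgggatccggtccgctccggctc

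In these windows Ms4a14 and F13a1 held 1 GAGGAA match each, Enpep and Fndc9 held 1 TTGCNNAA match each, and Ms4a4a and Dnajc6 held none. A match is only a string of letters and no match says only that the letters are not in the window. Across 11753 tested genes with a promoter entry, TTGCNNAA occurred in 10.1% of 984 higher genes (95% Wilson interval 8.33 to 12.1), 7.38% of 1246 lower genes (6.06 to 8.97) and 7.55% of all. GAGGAA occurred in 25.6% (23.0 to 28.4) of the higher, 23.0% (20.8 to 25.5) of the lower and 22.9% of all promoters. CCCNNGGG occurred in 17.6% (15.3 to 20.1), 14.2% (12.4 to 16.3) and 15.6%. These shares are descriptions and were not tested, and promoters of neighbouring genes can share sequence.

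The genes were next grouped by function, using lists whose members are known for a role in macrophages, in B cells or in general cell biology. The lists contain 190 of the 1445 higher genes (13.15%) and 272 of the 1840 lower genes (14.78%), and the counts below are read against the 8.51% and 10.8% of all genes. Among 25 transcription factors of myeloid cells, 11 were higher and 4 lower, with a median log2 fold change of 0.57. The higher set included Tfec, Maf and Cebpb, a second C/EBP family member (46.5 and 44.5 CPM against 66.8 and 73.0 CPM). The lower members were Cebpa itself, Irf8, whose fold lay just past the threshold (log2 fold change of -0.62), Nfe2 and Gfi1, a repressor needed by neutrophils, which was at 9.82 and 9.30 CPM against 2.59 and 2.89 CPM. Thus members of this list were found on both sides.

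Receptors for growth factors and microbes were higher or not called. Of 17 myeloid cytokine receptor genes 8 were higher and 0 lower. Csf1r, the M-CSF receptor on which macrophages depend, was at 115 and 117 CPM in wild-type and at 555 and 544 CPM in R35A cells. Csf3r, the G-CSF receptor, was at 0.478 and 0.358 CPM against 6.54 and 5.90 CPM, and it fell in wild-type and rose in R35A cells during the hour. Of 25 pattern recognition receptors 18 were higher and 0 lower (median 0.93). They included Tlr2, a sensor of bacterial lipoproteins, at 44.5 and 47.1 CPM against 178 and 171 CPM, and Cd14, the coreceptor for endotoxin, with a log2 fold change of 1.98. The formyl peptide receptor gene Fpr2 was low in wild-type cells, with 0.478 and 0.179 CPM, and at 8.68 and 8.10 CPM in R35A cells. Tlr4 and the adaptor Myd88 were not called (log2 fold changes of 0.48 and 0.32).

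Among the functional lists, that of phagocyte signalling proteins had the highest median, 1.49, and 17 of its 21 tested genes were higher and 0 lower. That of chemokine ligands was close to it, at 1.48. Over the main and alternative settings the 2 medians ran from 1.44 to 1.55 and from 1.48 to 1.625, so their order is not firm. Tyrobp, the adaptor through which many myeloid receptors signal, was at 62.6 and 59.6 CPM against 174 and 170 CPM. Trem2, a receptor that pairs with it, was at 14.4 and 12.2 CPM against 61.2 and 63.4 CPM, and the Src family kinase Fgr at 7.44 and 7.33 CPM against 33.2 and 30.3 CPM. Of 11 Fc receptor and NADPH oxidase genes 8 were higher and 1 lower. Cybb, the catalytic subunit of the oxidase, was at 176 and 179 CPM against 409 and 396 CPM, and Fcgr3, an activating Fc receptor, at 42.4 and 43.3 CPM against 120 and 122 CPM. Rac2, the GTPase that activates the oxidase in blood cells, was the lower member, with 207 and 211 CPM against 101 and 102 CPM.

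Adhesion genes were divided, with 5 of 18 higher and 4 lower. Itgam, the alpha chain of Mac-1, was at 20.3 and 20.8 CPM against 53.6 and 54.4 CPM, and its beta chain Itgb2 at 81.1 and 83.4 CPM against 147 and 142 CPM. Itgax, which encodes CD11c and pairs with the same beta chain, went the other way, with 14.7 and 16.2 CPM in wild-type and 7.39 and 8.74 CPM in R35A cells, although it rose in both during the hour. Itga4, Pecam1 and Icam2 were also lower. Of 31 lysosome genes 12 were higher and 0 lower, and these include some of the most abundant transcripts. Ctsb and Psap, a cathepsin and the precursor of the saposins, were at 1436 and 1440 CPM and at 1681 and 1651 CPM in wild-type cells, against 2796 and 2769 CPM and 3259 and 3186 CPM. Ctss, a cathepsin of antigen presenting cells, was at 120 and 120 CPM against 388 and 397 CPM. Lyz2, lysozyme, was at 632 and 624 CPM in wild-type and at 2818 and 2818 CPM in R35A cells, a log2 fold change of 2.17 ± 0.03 (SE, adjusted p = 1.0e-45). Lyz1 is nearly identical to it in sequence, so their reads may be divided wrongly. Of 19 lysozyme and granule protein genes 8 were higher and 2 lower, Cst7 and Ctsg, of which the second rests on few counts and lost its call in 7 alternatives. The median of that list was 0.79, and it was -0.17 with the 10 genes that had at most 3 counts per library in 1 construct or both set to that floor.

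Chemokines, cytokines and their regulators formed the next groups. Of 17 chemokine ligand genes 14 were higher and 1 was lower (median 1.48), and of 18 cytokine genes 9 were higher and 1 lower. Cxcl2, a chemokine that draws neutrophils, was at 14.3 and 14.8 CPM against 64.5 and 64.1 CPM, and Ccl2, which draws monocytes, at 68.1 and 68.3 CPM against 196 and 185 CPM. Pf4, a chemokine of platelets and macrophages, was at 28.6 and 30.5 CPM against 159 and 161 CPM. Tnf was at 10.8 and 10.8 CPM against 41.8 and 42.2 CPM and Il1b at 4.50 and 4.05 CPM against 14.3 and 11.9 CPM. The lower members were Ccl22, at 9.48 and 8.05 CPM against 3.21 and 2.84 CPM, and Il12a, a subunit of IL-12 and IL-35, at 32.3 and 27.1 CPM against 7.56 and 8.51 CPM. Of 12 chemokine receptor genes 6 were higher, among them Cx3cr1 and Ccr2 of monocytes, and 3 were lower, namely Cxcr4, Cxcr5 and Ccr7, which guide B cells. Cxcr4 was at 229 and 224 CPM against 97.1 and 89.1 CPM.

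Of 15 genes for NF-κB subunits and their inhibitors 8 were higher and 0 lower. The inhibitors Nfkbia (82.3 and 78.9 CPM against 212 and 210 CPM) and Tnfaip3 (70.9 and 72.9 CPM against 150 and 148 CPM) were higher, as were the subunits Relb and Nfkb2 of the noncanonical pathway. The canonical subunits Rela and Nfkb1 were not called (log2 fold changes of 0.27 and -0.06). Of 13 genes for eicosanoid enzymes, which make prostaglandins and leukotrienes, 8 were higher and 1 lower. Pla2g7, which inactivates platelet activating factor, was at 64.8 and 63.9 CPM against 270 and 268 CPM, whereas Ptgs2, the inducible cyclooxygenase, was at 1409 and 1457 CPM against 1349 and 1319 CPM and was not called. Interferon-stimulated genes gave 15 higher and 4 lower of 30. Oas2 and Irf7 were among the former, while the latter included Gbp7, at 27.4 and 26.4 CPM against 10.4 and 10.4 CPM, Gbp5, and Gbp3, which lay close to the threshold.

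Of 17 scavenger receptor and lipid handling genes 8 were higher, including Msr1, a receptor for modified lipoproteins, at 29.1 and 29.1 CPM against 75.8 and 73.3 CPM. Of 22 genes of glycolysis 4 were higher, among them the hexokinase Hk2, at 150 and 150 CPM against 262 and 266 CPM, and the lactate exporter Slc16a3. Of 17 iron and antioxidant genes 4 were higher, including the ferritin chain Fth1, at 1489 and 1485 CPM against 2645 and 2674 CPM. Spp1, osteopontin, and Tnc, tenascin C of the extracellular matrix, were among the 5 increases that were largest in CPM, with 985 and 1001 CPM against 2717 and 2697 CPM and with 2897 and 2883 CPM against 4834 and 4814 CPM. Both are also made by fibroblasts. Of the 20 fibroblast markers 14 had a log2 fold change above 0, with a median of 0.18, and 1 was called, Dcn, at 66.9 and 68.9 CPM against 189 and 185 CPM. The part of feeder cells in the values of Spp1 and Tnc was not tested.

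Lists of B lineage genes were examined next. Of 22 B lineage transcription factor genes 14 were lower and 0 higher (median -1.13). Pax5, which maintains B cell identity, was at 263 and 260 CPM in wild-type and at 79.1 and 79.8 CPM in R35A cells. Ebf1, which acts upstream of it, was at 218 and 217 CPM against 72.4 and 74.6 CPM. Lef1, Erg, Ikzf1, Bach2 and Irf4 were lower too, and Foxo1 was not called (log2 fold change of -0.52). Of 26 genes of the pre-B and B cell receptor 17 were lower and 0 higher. Igll1, which encodes the lambda 5 chain of the surrogate light chain, was at 399 and 403 CPM against 107 and 109 CPM, and Cd79a, the signalling chain of the receptor, at 184 and 181 CPM against 51.1 and 46.3 CPM.

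Genes of V(D)J recombination gave 6 lower of 10, which included both recombinase genes and the terminal transferase. Rag2 was at 9.21 and 9 CPM against 1.92 and 1.56 CPM, Rag1 at 17.5 and 16.7 CPM against 5.70 and 5.33 CPM, and Dntt at 46.3 and 47.3 CPM against 10.4 and 11.2 CPM. Ighm, the mu heavy chain, had the largest difference in CPM of the lower genes, with 1624 and 1633 CPM against 481 and 459 CPM. Of 10 immunoglobulin constant region genes 5 were lower, and 1, Ighg3, was higher. The log2 fold change of Ighg3 was 3.02, and 2.55 or 3.85 with the first or the second wild-type library left out. For 2 of the 10 genes, 1 construct or both had at most 3 counts in each library. Of 94 tested immunoglobulin variable segments 51 were lower and 1 higher, with a median of -1.61. For 41 of these segments 1 construct or both had at most 3 counts in each library, and with such groups set to 3 counts the median was -1.36. Near-identical segments share reads, so single segments are not described. Of 10 genes of MHC class II and its loading 8 were lower, with H2-Aa at 69.3 and 69.4 CPM against 26.7 and 25.6 CPM. H2-DMa and H2-DMb1, which edit the bound peptides, were not called (0.22 and 0.00).

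B cell surface proteins gave 12 lower and 3 higher of 19. The 3 higher genes, Cd86, Cd180 and Lair1, are also expressed by macrophages, and Cd86, a costimulatory ligand, was at 25.7 and 23.0 CPM against 72.4 and 68.2 CPM. Of 15 genes of IL-7 receptor signalling, on which the cultured cells depend, 2 were higher, Il7r and Socs3, and 2 lower, Stat5b and Socs2. Il7r, the receptor itself, was at 43.5 and 45.9 CPM against 71.3 and 70.5 CPM, and Stat5b, a transducer of its signal, at 148 and 147 CPM against 61.5 and 56.4 CPM. Stat5b rose in wild-type cells in the first hour.

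**Figure D4:**
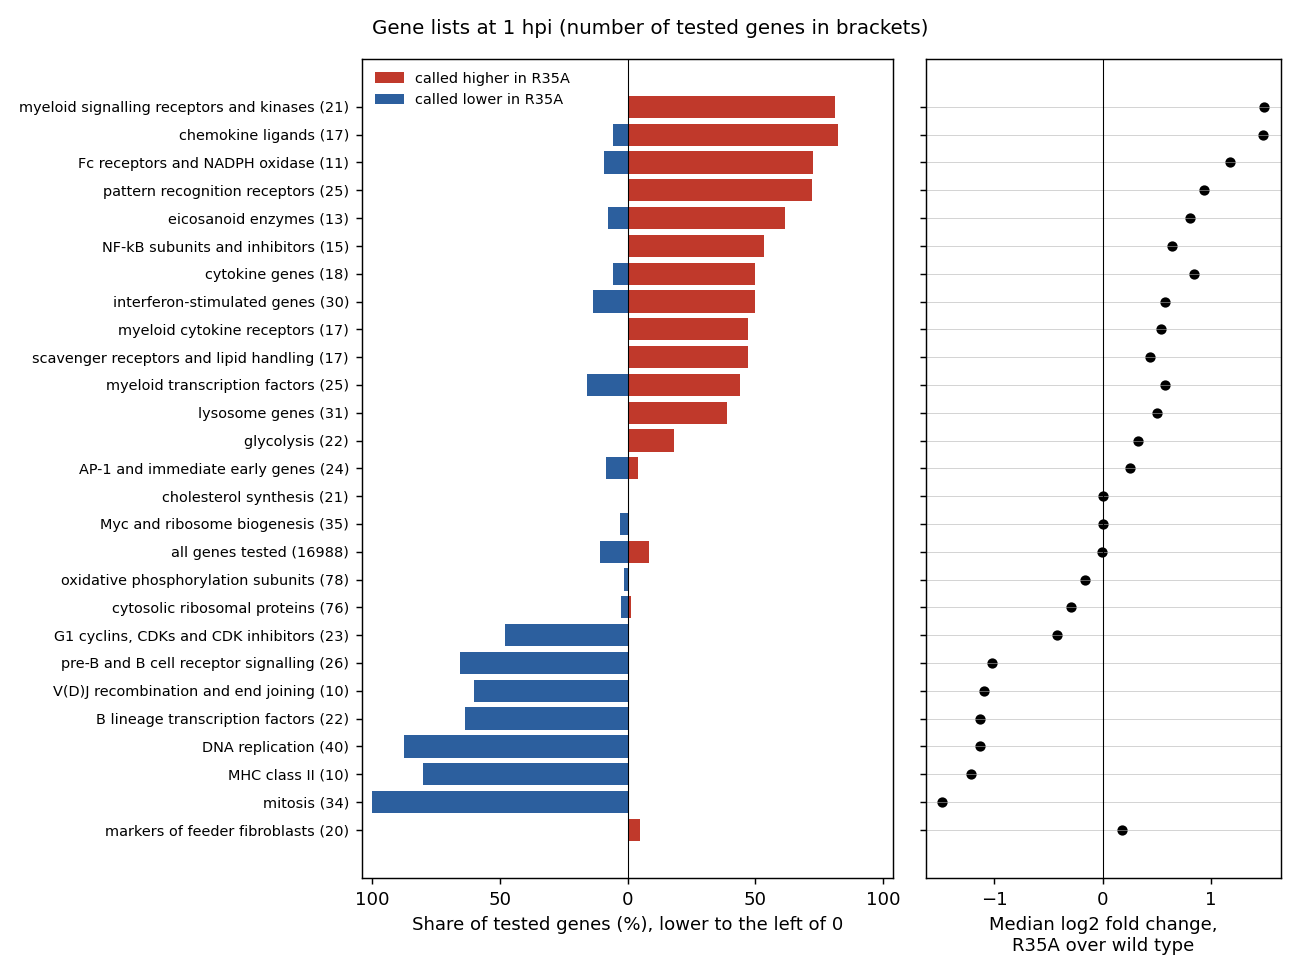
For 26 gene lists and all genes tested, the share of tested genes called higher (red, to the right) or lower (blue, to the left) in R35A at 1 hpi, in percent, and the median log2 fold change (dots, right panel). Mitosis, with 34 of 34 lower, and myeloid signalling, with 17 of 21 higher, are near the extremes, while cholesterol synthesis has none called.

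All 34 tested mitosis genes were lower in R35A cells (median -1.48), and the interaction was called for all 34. In wild-type cells 8 of the 34 fell during the hour, and in R35A cells 34 fell. Kif11, a motor of the spindle, was at 195 and 202 CPM against 51.1 and 50.9 CPM, Top2a, the topoisomerase of chromosome condensation, at 515 and 518 CPM against 156 and 154 CPM, and Mki67 at 844 and 834 CPM against 259 and 270 CPM. Of 40 DNA replication genes 35 were lower and 0 higher (median -1.13). Mcm5, a subunit of the replicative helicase, was at 228 and 220 CPM against 73.4 and 69.3 CPM. Replication genes fell in wild-type cells too, 34 of 40, compared with 40 of 40 in R35A cells.

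Regulators of the G1 phase gave 11 lower and 0 higher of 23. The cyclin Ccnd3 was lower, with 124 and 130 CPM against 59.6 and 63.7 CPM, while Ccnd2 was not called, with 406 and 413 CPM against 380 and 387 CPM. E2f2, E2f7 and E2f8 were lower, and so was Cdkn1b, an inhibitor of cyclin kinases. Cdkn1a, the inhibitor induced by p53, was at 1669 and 1631 CPM against 1947 and 1917 CPM and was not called, and 1 of 20 p53 target genes was higher. Of 27 replication-dependent histone genes, whose mRNAs mostly lack a poly(A) tail and are poorly sampled by the library kit, 1 was called.

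Chromatin regulators gave 6 lower and 1 higher of 25. Ezh2, which methylates histone H3 lysine 27, was at 89.2 and 90.4 CPM against 28.8 and 31.4 CPM, and Dnmt1, the maintenance DNA methyltransferase, at 275 and 271 CPM against 110 and 106 CPM. Kdm6b, a demethylase of histone H3 lysine 27, was higher, with 112 and 109 CPM against 185 and 182 CPM. Of 20 genes of the amino acid response 5 were lower, and these included Phgdh, Psat1 and Shmt2, enzymes of serine and glycine synthesis. Asns and Atf4 of the same list differed by -0.04 and 0.07 on the log2 scale.

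Most housekeeping lists contained fewer called genes than the background. None of 21 cholesterol synthesis genes and 0 of 7 mitochondrially encoded genes was called. There was 1 lower gene among 78 subunits of oxidative phosphorylation, 77 mitochondrial ribosomal proteins, 35 genes of Myc and ribosome biogenesis, and 25 chaperones and unfolded protein response genes each. In the last of these the single gene was Herpud1, with 226 and 230 CPM against 81.4 and 78.8 CPM. Of 76 cytosolic ribosomal proteins 2 were lower and 1 higher, with a median of -0.29, and of 38 proteasome subunits the 2 lower genes were Psmb8 and Psmb9 of the immunoproteasome. Immediate early genes gave 1 higher and 2 lower of 24, although 16 of the 24 rose in wild-type and 15 in R35A cells during the hour. Egr1 was at 442 and 440 CPM against 413 and 421 CPM. The Bcl2 family gave 1 higher (Bcl2a1b, which has near-identical copies) and 1 lower (Bmf) of 16, and zinc finger genes named Zfp 11 higher and 32 lower of 326.

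Markers of other cells also changed in sum from 0 to 1 hpi. Fibroblast markers rose from 6291 and 6398 CPM in total to 11206 and 11174 CPM in wild-type cells, and from 6613 and 6684 CPM to 11240 and 11259 CPM in R35A cells. Neutrophil markers fell from 63.9 and 61.1 CPM to 2.11 and 2.92 CPM and from 50.5 and 49.3 CPM to 3.78 and 2.89 CPM. Platelet markers went from 14.6 and 15.2 CPM to 54.6 and 55.5 CPM in wild-type cells and from 14.2 and 14.9 CPM to 199 and 200 CPM in R35A cells. Mast cell and basophil markers went from 8.48 and 9.86 CPM to 17.9 and 15.9 CPM and from 8.23 and 11.2 CPM to 29.6 and 32.5 CPM. T cell markers went from 45.4 and 46.7 CPM to 14.5 and 16 CPM and from 43.6 and 41.4 CPM to 6.09 and 6.31 CPM, so the sums of these 3 lists differed between the constructs at 1 hpi. Their part in the changes from 0 hpi was not tested, and in the comparison at 1 hpi the fibroblast sums of the constructs lay within 1% of each other.

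The level that R35A cells had at 1 hpi was then located on the wild-type time course. Among the 1840 lower genes, the wild-type mean first came down to it at 3 hpi for 12, at 6 hpi for 44, at 18 hpi for 1380 (75.0%), at 120 hpi for 228 and at no timepoint for 176 (9.57%). For the 1445 higher genes the wild-type mean first reached it at 3 hpi for 16, at 6 hpi for 74, at 18 hpi for 226, at 120 hpi for 693 (47.96%), and at no timepoint for 436 (30.17%). Pax5 can serve as an example, with a mean of 79.4 CPM in R35A cells at 1 hpi and of 261, 255, 224 and 54.2 CPM in wild-type cells at 1, 3, 6 and 18 hpi. Csf1r, at 550 CPM in R35A cells at 1 hpi, was at 79.9 CPM in wild-type cells at 3 hpi, at 149 CPM at 18 hpi and at 2100 CPM at 120 hpi.

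The expression after 1 hpi was then followed. Among called genes with at least 10 CPM, the median log2 change from 1 to 6 hpi in R35A cells was 0.02 for 644 higher genes and -0.05 for 945 lower genes, and in wild-type cells 0.11 and -0.40. Myb went from 37.9 CPM at 1 hpi to 34.7 and 35.3 CPM at 3 and 6 hpi in R35A cells and from 193 to 157 and 108 CPM in wild-type cells. Ms4a14 stayed between 26.8 and 31.5 CPM in R35A cells from 1 to 18 hpi and between 1.07 and 2.75 CPM in wild-type cells.

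**Figure D5:**
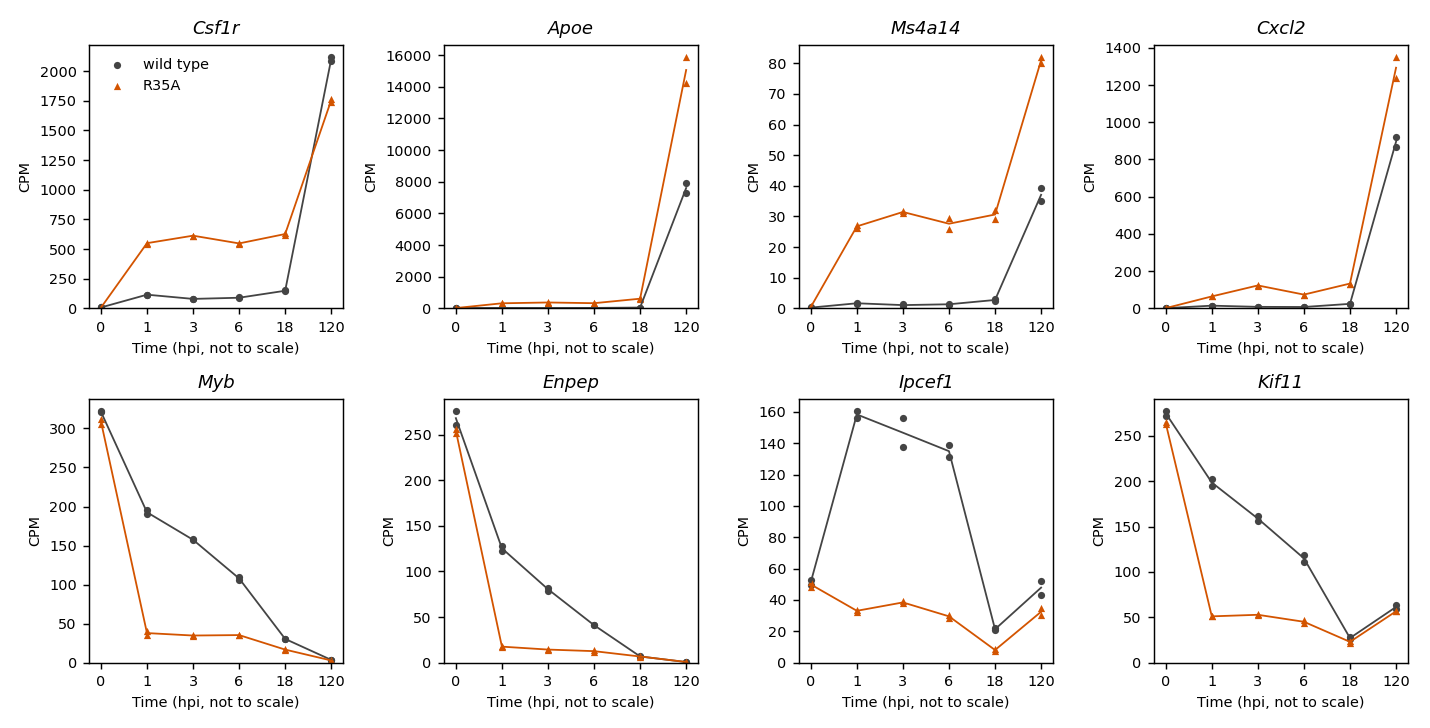
Expression in CPM (y axis, starting at 0) of 8 genes in wild-type and R35A cells over the 6 timepoints from 0 to 120 hpi (x axis, not to scale), with points for the libraries and lines through the means. R35A changes most between 0 and 1 hpi for Csf1r, Myb, Enpep and Kif11 within the first 18 hr, and Ipcef1 rises in wild-type cells and falls in R35A cells.

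At 3 hpi the constructs differed at 2886 genes (17.0%), of which 1351 were higher (7.95%) and 1535 lower (9.04%) in R35A cells. Of the genes higher at 1 hpi 848 (58.69%) were called again in the same direction and 3 in the opposite one, and of the lower genes 1225 (66.58%) and 0. The sign at 3 hpi was the same for 94.12% and 96.85%. Ctsb, Csf1r, Pax5 and Kif11 were among those called at both, whereas Tnc and Tubb5 were no longer called.

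The second mutant of the series, C/EBPαR35K, in which arginine 35 is replaced by lysine, has tables of its own and was fitted alone. From 0 to 1 hpi 5414 of 16434 genes (32.9%) changed in R35K cells, with 2548 rising (15.5%) and 2866 falling (17.4%). Of the 1414 genes higher in R35A at 1 hpi that were tested there, 922 (65.21%) rose and 20 fell with R35K, and of 1788 lower genes 1365 (76.34%) fell and 40 rose. These are changes from 0 hpi, whereas the genes were chosen by R35A against wild type at 1 hpi. In wild-type and R35A cells alike, 530 of the 1445 higher genes (36.68%) rose and 701 of the 1840 lower genes (38.1%) fell. The libraries of those 2 constructs were used to choose the genes. Apoe, which was not called in wild-type cells, rose by 4.68 on the log2 scale with R35K, and Enpep fell by 2.20. Ipcef1, Clec2i and Fndc9, which rose with the wild type and fell with R35A, changed by -0.19, -0.31 and -0.49 with R35K and were not called. No test between R35K and the other constructs was made, since their count tables were fitted separately here.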

How the data were processed

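RNA was measured in 36 libraries of mouse B cells carrying C/EBPα-ER constructs, of which the 24 wild-type and R35A libraries were analysed together. The authors made stranded poly(A) libraries with single-end reads, ran FastQC on the reads and mapped them with STAR 2.5.0a on mm10, whose gene counting gave the deposited raw read counts. They used DESeq2 1.14.1 for their own tests, which are not used here. The annotation release and the strand column of the counts are not given in the sources used here.

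From the counts, genes passing filterByExpr (16988 of 40354) were scaled by TMM and fitted with the quasi-likelihood model of edgeR 4.0.16 in R 4.3.3 (limma 3.58.1), with 1 coefficient for each of the 12 groups, so that all groups share the estimate of spread. Genes were called at a fold change of 1.5 and a Benjamini-Hochberg adjusted p of 0.05. The R35K counts were fitted separately. Chi-square values per degree of freedom between replicates were 1.12 for the wild type and 1.22 for R35A at 1 hpi. At 0 hpi they were 1.87 and 1.85. Sampling noise alone did not account for the differences between replicates, and no 2 libraries were counted as 1. Such values cannot tell separate cultures from repeat libraries of 1 culture. The script was tested on simulated data. Total counts at 1 hpi were 14160103 to 17257220. Biotypes and positions came from GENCODE vM21, in which 97.07% of symbols were found, and promoters from RefSeq on GRCm38.p6. Promoter shares carry Wilson intervals, which cover counting error only.

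Named genes were the 12 largest changes in each direction with at least 10 CPM and separate groups, up to 4 called members of each list with at least 5 CPM, the 5 largest differences in CPM in each direction, Cebpa, Spi1 and Carm1. Predicted genes and immunoglobulin variable segments were left out of the first set. A further 47 genes were named after their values were seen. Some genes that the rule selects are not reported here. The comparison and the lists were chosen with earlier results of these data known. Alternatives were DESeq2 1.42.0 (Wald test), its size factors, other filters, other folds, the groups compared alone, a replicate block and leaving out each library.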

Additional observations from a re-analysis of the deposited data

Results flagged for a closer look

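The change from 0 to 1 hpi differed between the constructs for 2384 genes by the interaction test. Of the genes called at 1 hpi, 5 fell in wild-type and rose in R35A cells, and 14 rose in wild-type and fell in R35A cells. In the second set, 7 genes were expressed at 10 CPM or more, and their differences in change are given as a description, since the choice of genes fixes the direction. Dnajc6, an auxilin that helps to uncoat clathrin vesicles, went from 10.0 and 10.7 CPM to 25.6 and 24.8 CPM in wild-type cells and from 12.0 and 11.7 CPM to 4.40 and 4.57 CPM in R35A cells, a difference of changes of -2.68 on the log2 scale. The corresponding differences were -2.57 for P2rx3, a channel gated by ATP, -2.36 for Fndc9, -2.21 for Ipcef1 and -2.16 for Clec2i. Satb1, an organiser of chromatin in lymphocytes, went from 32.9 and 33.1 CPM to 62.2 and 62.2 CPM in wild-type cells and from 32.0 and 32.0 CPM to 21.3 and 21.1 CPM in R35A cells (-1.51). Ssh2, a phosphatase of cofilin, had a difference of -1.49.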

How the results depend on the processing

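The number of genes called at 1 hpi was 2925 by the Wald test, 3376 with size factors, 3274 without a filter, 3328 with at least 10 counts in a group, 3192 with the groups compared alone and 2977 to 3077 with 1 library left out. Between 2694 and 3264 of the 3285 calls were shared in the same direction. Without the second R35A library at 1 hpi, 1531 genes were higher and 1546 lower. A 2-fold threshold gave 1722 genes at 1 hpi, 1708 for the wild-type change, 3670 for the R35A change, 1289 for the difference in change, 1562 at 3 hpi and 3137 for the R35K change, and no fold threshold gave 8642, 8712, 11241, 5778, 7747 and 10427, by construction. At 0 hpi the count of 0 became 1 with the Wald test, 16 without a filter, 5 with the groups compared alone, 1 with the replicate block, 8 with no fold threshold and 0 to 11 with 1 library left out. The 11 came without the second R35A library at 0 hpi, and the cause was not tested. With 1 library left out, the lone library is assumed to vary like the other groups. Replicate numbers are shared by the groups, but same-numbered libraries of the constructs at 1 hpi had a correlation of deviations of 0.006, and 2 of 66 pairs of groups were above 0.1, so no pairing was assumed. The replicate block gave 3269 genes at 1 hpi and changed no call of a named gene. Of 197 genes that were named and called, Dusp5, Rps4x, Mrpl44, Irf8, Gbp3 and Psmb8 dropped below 1.5-fold, and Cxcr5 and Ctsg above the p threshold, in at least 1 alternative, and none changed sign. Medians changed sign for 6 lists whose median lay within 0.06 of 0. Genes under 1 CPM, 213 higher and 267 lower, are the least precise. Over 300 bases TTGCNNAA was in 11.2% of higher, 8.83% of lower and 8.50% of all promoters, and at 2-fold in 11.6% of higher and 7.99% of lower genes against 7.55% of all. GAGGAA was in 30.3%, 28.2% and 27.2% over 300 bases, and in 30.6% and 24.6% at 2-fold against 22.9%. CCCNNGGG was in 20.0%, 16.8% and 18.0% over 300 bases, and in 16.8% and 14.4% at 2-fold against 15.6%.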

Other observations

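The decline in CPM in the first hour can be put as a time per halving, on the assumption of a steady exponential fall over 60 min. In R35A cells Ly6d, a surface antigen of B lineage cells, took 14.7 min, Enpep 15.6 min, Rag1 15.7 min and Dntt 15.9 min. In wild-type cells the same values were 23.1, 54.7, 26.0 and 36.1 min. These are bounds on no single process, since synthesis and decay both contribute to the counts. CPM is also a share of each library, so the times depend on the mix of cells. In wild-type cells neutrophil markers fell from 63.9 and 61.1 CPM to 2.11 and 2.92 CPM over the same hour. Fibroblast markers rose from 6291 and 6398 CPM to 11206 and 11174 CPM, and both lists moved the same way in R35A cells. The part of the mix in these times was not tested.

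Among the classes of genes in the annotation, 1244 higher and 1473 lower genes were among 14093 protein-coding genes tested, and 37 and 62 among 457 lincRNA genes. Antisense genes gave 44 and 51 of 538, whose reads depend on the strand setting, which is not known here. Called pseudogenes, 27 and 61 of 598, can share reads with their parent genes.

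At 120 hpi, Apoe had a mean of 7607 CPM in wild-type and 15064 CPM in R35A cells, and Csf1r of 2100 and 1754 CPM. Enpep was at 0.607 and 0.723 CPM. The order that the constructs had at 1 hpi was thus kept for Apoe and not for Csf1r, and no test was made at that timepoint.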
